A study of Mus musculus with 12 samples.

Results

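Naive pluripotency transcription factors are the regulators that keep mouse embryonic stem cells and induced pluripotent stem (iPS) cells in the state of the early epiblast. The members were the 10 genes Nanog, Esrrb, Tfcp2l1, Zfp42, Klf2, Klf5, Tbx3, Prdm14, Nr0b1 and Sall4, taken by platform gene symbol, and all 10 were among the 22180 genes measured. Each gene was read by its brightest probe set, and 1 member, Sall4, had more than 1. Expression was measured on 12 Affymetrix microarrays, 3 in each of 4 groups. The groups were leukemia cells from the spleen of a NOTCH1 leukemia mouse model, GFP-positive colonies that the labels call partially reprogrammed, GFP-negative colonies that they call reprogrammed, and established iPS cells. All 4 groups, the leukemia included, carried the mouse genotype R26rtTA;Col1a12lox-4F2A, in which the reverse tetracycline transactivator can switch on a cassette with 4 factors: Myc, Klf4, Sox2 and Pou5f1. None of the 10 members is a factor of that cassette. The labels trace the colonies and the iPS cells to the leukemia cells. They give mES medium for the iPS cells and state neither what GFP marks nor an inducing agent, a time or an age. The leukemia titles all name leukemia 1. The titles call the replicates biological without naming an animal or a culture, and the p-values below therefore cover the scatter of these arrays alone, which may be technical.

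As background, the naive state is held by Pou5f1 and Sox2 together with a wider set of factors that bind one another's genes. Cytokine and Wnt signals reach that set through different members. Signalling by leukemia inhibitory factor (LIF) through STAT3 acts on Klf4 and Tfcp2l1, and release of the repressor Tcf7l1 by Wnt signalling acts on Esrrb, Nanog and Tfcp2l1. In reprogramming, late activation of members such as Nanog and Esrrb from their own loci is a textbook mark of the last steps.

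RefSeq start sites (GRCm38.p6) were matched for 6 of the 10 members, in 8 windows of the 250 bases before a start. Of these, 4 windows are shown because they belong to members whose patterns on the colony arrays, given further on, were close to each other (Nanog, Zfp42 and Nr0b1) or apart from those (Tfcp2l1). Capitals mark matches, on either strand, to the POU core TTTGCAT, the OCT4-SOX2 composite motif, the KLF motif GGGNGTGG and the ESRRB core AAGGTCA. The POU core lies inside the composite, so these overlap.
Nanog, chr6:122707315-122707564, plus strand: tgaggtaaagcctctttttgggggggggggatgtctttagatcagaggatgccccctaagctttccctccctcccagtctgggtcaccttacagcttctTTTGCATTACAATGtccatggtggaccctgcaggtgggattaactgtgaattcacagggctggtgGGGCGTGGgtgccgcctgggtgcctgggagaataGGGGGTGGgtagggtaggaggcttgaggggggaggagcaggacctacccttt
Zfp42, chr8:43307010-43307259, minus strand: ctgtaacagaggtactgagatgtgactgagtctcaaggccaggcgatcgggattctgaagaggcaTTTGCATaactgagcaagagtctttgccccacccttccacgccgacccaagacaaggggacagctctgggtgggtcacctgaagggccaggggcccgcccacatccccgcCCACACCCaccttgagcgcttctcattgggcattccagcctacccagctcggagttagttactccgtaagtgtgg
Nr0b1, chrX:86191525-86191774, plus strand: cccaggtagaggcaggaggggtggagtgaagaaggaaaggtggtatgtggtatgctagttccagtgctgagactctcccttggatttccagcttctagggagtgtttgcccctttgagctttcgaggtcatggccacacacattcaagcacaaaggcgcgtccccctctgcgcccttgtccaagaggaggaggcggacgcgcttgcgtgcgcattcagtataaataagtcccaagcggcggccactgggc
Tfcp2l1, chr1:118627695-118627944, plus strand: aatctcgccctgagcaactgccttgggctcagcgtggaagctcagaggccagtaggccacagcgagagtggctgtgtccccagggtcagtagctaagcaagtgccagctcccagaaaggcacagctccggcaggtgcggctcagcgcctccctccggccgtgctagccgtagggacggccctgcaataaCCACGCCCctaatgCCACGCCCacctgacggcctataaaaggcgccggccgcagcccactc
The Nanog window holds the composite 151 to 138 bases before this start. The composite pattern was written with this known Nanog element in mind, so the match is by construction. It occurs in 3 of 32851 windows of this length, and the windows of both Nanog starts are among the 3. Zfp42 has the POU core 185 to 179 bases before its start, which 4.12% of all windows hold. The KLF motif occurs in 15.9% of all windows. It lies in the Nanog window 86 to 79 and 52 to 45 bases before the start, in the Zfp42 window 75 to 68 bases before it, and in the Tfcp2l1 window 61 to 54 and 47 to 40 bases before it. These letters were not found in the Nr0b1 window, and the ESRRB core, held by 4.08% of windows, was in none of the 8.

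The leukemia and iPS arrays were alike within their groups, whereas the colony arrays were not. Pairs of leukemia arrays correlated at 0.994 across genes and pairs of iPS arrays at 0.995, against 0.937 to 0.975 for GFP-positive and 0.887 to 0.970 for GFP-negative colonies. Over the 6 colony arrays the SD of a gene had a median of 0.25. That of each member was larger, from 0.52 for Tfcp2l1 to 2.94 for Nr0b1. On 2 colony arrays, GFP-positive replicate 3 and GFP-negative replicate 1, at most 2 of the 9 members that could be placed between leukemia and iPS cells were past the midpoint of the log2 scale, and these are called the low arrays. On GFP-positive replicate 3, 7 of the 10 members were nonetheless above every leukemia array (all but Zfp42, Klf2 and Tbx3). Counts of called members are also given without the low arrays. These were chosen by the members' own low values, so leaving them out raises the members' colony levels by construction. Those counts describe how far the 12-array fit rests on these arrays and support no rise. In these samples a smaller number of cells that express a member and less of its RNA per cell cannot be told apart. Levels and differences below are log2 values, the test is limma's moderated linear model over all 22180 genes, "called" means a Benjamini-Hochberg adjusted p under 0.05, and ± after a difference is its standard error.

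**Figure D1:**
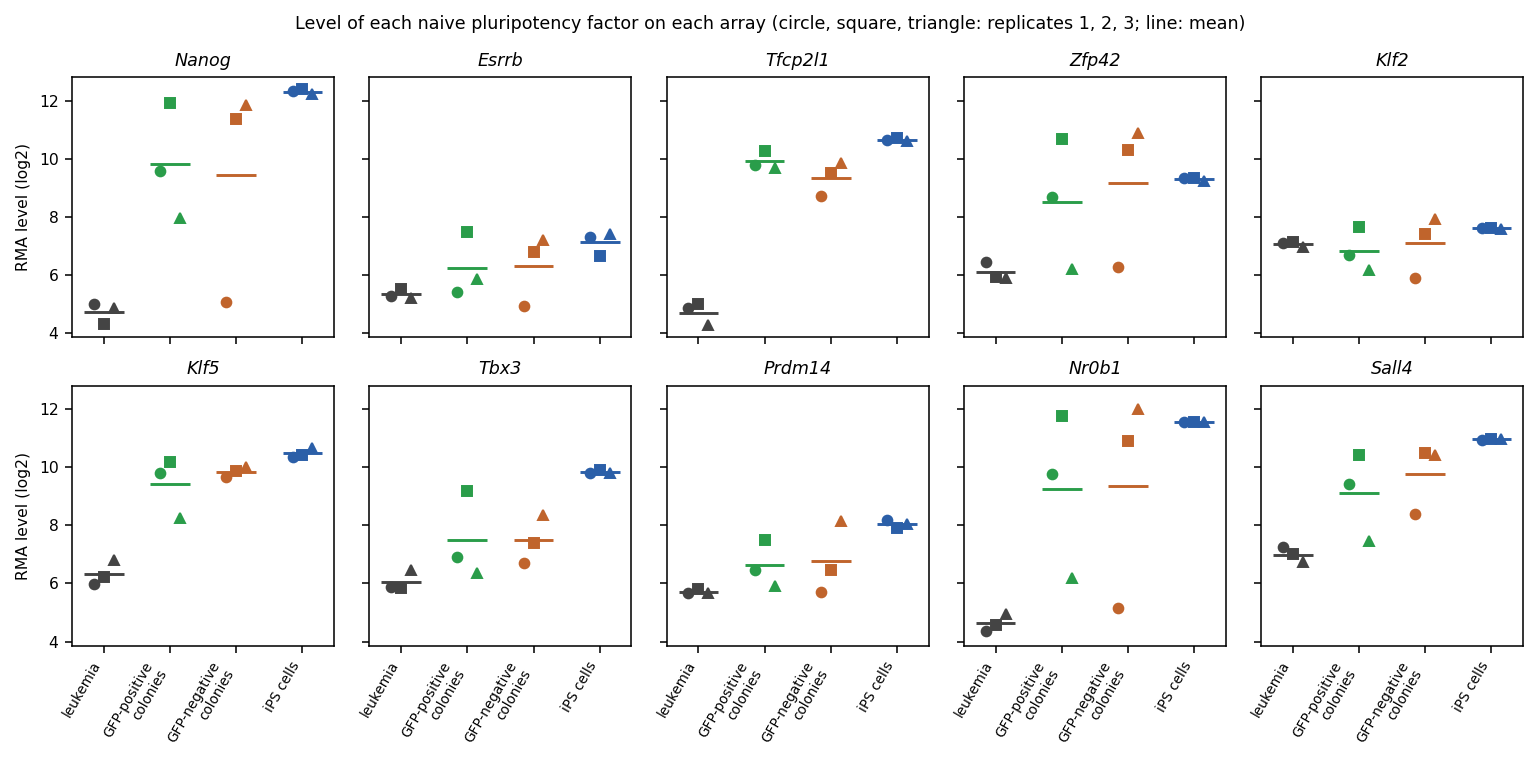
Level of each of the 10 members (log2, vertical axis) on each of the 12 arrays by group (horizontal axis). Circles, squares and triangles are replicates 1, 2 and 3 and lines are group means of 3 arrays. Leukemia and iPS arrays lie close together, and the colony arrays spread, for Nanog from 5.07 to 11.93.

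Nanog, the homeodomain factor at the centre of the network, measured 4.99, 4.32 and 4.85 in leukemia and 12.32, 12.39 and 12.21 in iPS cells. It measured 9.56, 11.93 and 7.97 on GFP-positive replicates 1, 2 and 3 and 5.07, 11.35 and 11.85 on the GFP-negative replicates. All 6 colony arrays lay above the leukemia arrays and below the iPS arrays, GFP-negative replicate 1 by only a small step above leukemia. Nanog was 192-fold higher in iPS cells than in leukemia (7.59 ± 1.53, adjusted p = 0.00445). It rose in GFP-positive colonies against leukemia (5.10 ± 1.53, adjusted p = 0.0371), a call lost without any 1 of the 3 leukemia arrays, GFP-positive replicate 1 or GFP-positive replicate 2 (adjusted p up to 0.116). In GFP-negative colonies the difference of 4.70 ± 1.53 was not called (adjusted p = 0.0530). Without GFP-negative replicate 1, a low array, it was 6.88 (adjusted p = 0.000226), and with any other array left out it was not called (adjusted p up to 0.164). It was also called after cyclic loess (4.78, adjusted p = 0.0468) and with genes above the median level only (adjusted p = 0.0370).

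Nr0b1, which encodes the nuclear receptor DAX1, a partner and restraint of Pou5f1, followed a like course. It measured 4.36, 4.58 and 4.96 in leukemia, 9.76, 11.78 and 6.19 in GFP-positive colonies, 5.14, 10.89 and 12.02 in GFP-negative colonies, and 11.57, 11.55 and 11.55 in iPS cells. GFP-positive replicate 2 and GFP-negative replicate 3 exceeded every iPS array, and GFP-negative replicate 1 lay near leukemia. It was 121-fold higher in iPS cells than in leukemia (6.92 ± 1.67, adjusted p = 0.0116). Against leukemia its differences of 4.61 ± 1.67 in GFP-positive (adjusted p = 0.0753) and 4.72 ± 1.67 in GFP-negative colonies (adjusted p = 0.0710) were not called. They were 6.14 without GFP-positive replicate 3 (adjusted p = 0.0226) and 6.82 without GFP-negative replicate 1 (adjusted p = 0.00198). These are the low arrays, chosen by the members' own values. With any other array left out neither difference was called (adjusted p up to 0.219 in GFP-positive and 0.203 in GFP-negative colonies). Its SD of 2.94 over the colony arrays was the widest of the 10 members.

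Sall4, a zinc finger factor that binds with Pou5f1 and Nanog and is also known in primitive endoderm and blood progenitors, started from a higher reading. It measured 7.25, 7.0 and 6.73 in leukemia, 9.44, 10.42 and 7.48 in GFP-positive colonies, 8.38, 10.48 and 10.43 in GFP-negative colonies, and 10.95, 10.96 and 10.98 in iPS cells. The groups at the ends did not overlap with the colonies. Sall4 rose by 3.97 ± 0.70 from leukemia to iPS cells (adjusted p = 0.00191) and by 2.77 ± 0.70 from leukemia to GFP-negative colonies (adjusted p = 0.0167). The latter call was lost without leukemia replicate 2 or 3 or GFP-negative replicate 2 or 3 (adjusted p from 0.0516 to 0.0629). In GFP-positive colonies the difference of 2.12 ± 0.70 was not called (adjusted p = 0.0530). It was 2.94 without GFP-positive replicate 3, a low array (adjusted p = 0.00459), and with any other array left out it was not called (adjusted p up to 0.161). It was called after cyclic loess at 2.24 (adjusted p = 0.0348) and with genes above the median level only (adjusted p = 0.0367). The dimmer Sall4 probe set measured 3.69 to 4.23 in leukemia, 3.64 to 4.44 in colonies and 5.08 to 5.83 in iPS cells, so it was higher in iPS cells but did not separate the colonies from leukemia.

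Zfp42, or Rex1, a zinc finger gene long used as a marker of undifferentiated cells, was the one member that stood above iPS cells by about 1 or more on several colony arrays. It measured 6.43, 5.94 and 5.88 in leukemia, 8.69, 10.66 and 6.19 in GFP-positive colonies, 6.26, 10.31 and 10.90 in GFP-negative colonies, and 9.34, 9.33 and 9.22 in iPS cells. GFP-positive replicate 2 and GFP-negative replicates 2 and 3 exceeded the highest iPS array by 1.32, 0.97 and 1.56, while GFP-positive replicate 3 and GFP-negative replicate 1 lay within the leukemia range. Over all genes, 13.5% exceeded every iPS array on these same 3 arrays by any margin. The difference between iPS cells and leukemia was 3.21 ± 1.21 (adjusted p = 0.0826) in the fit of all 12 arrays, which shares one spread over the groups. It was called in the fit of those 6 arrays alone (adjusted p = 2.58e-07). The difference between iPS cells and GFP-negative colonies was 0.14 ± 1.21 (adjusted p = 0.963), and it turned to -1.31 without GFP-negative replicate 1, which was not called (adjusted p = 0.497).

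Tfcp2l1, a factor downstream of LIF and Wnt signalling, was high on every colony array. It measured 4.85, 4.98 and 4.27 in leukemia, 9.78, 10.28 and 9.67 in GFP-positive colonies, 8.72, 9.49 and 9.84 in GFP-negative colonies, and 10.64, 10.72 and 10.61 in iPS cells. All 6 colony arrays lay at least 3 units above leukemia, and none reached the iPS arrays. It was 37.0-fold higher in GFP-positive colonies than in leukemia (5.21 ± 0.28, adjusted p = 5.45e-07), 25.0-fold higher in GFP-negative colonies (4.65 ± 0.28, adjusted p = 1.22e-06) and 62.1-fold higher in iPS cells (5.96 ± 0.28, adjusted p = 2.21e-07). All 3 calls held whichever of the compared arrays was left out.

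Esrrb, an orphan nuclear receptor that can stand in for Nanog, changed over a narrow range on its probe set. It measured 5.28, 5.52 and 5.19 in leukemia, 5.40, 7.49 and 5.86 in GFP-positive colonies, 4.94, 6.80 and 7.19 in GFP-negative colonies, and 7.31, 6.66 and 7.40 in iPS cells. GFP-positive replicate 2 and GFP-negative replicates 2 and 3 lay within or just above the iPS range, and GFP-positive replicate 1 and GFP-negative replicate 1 within or below that of leukemia. No comparison of the 12-array fit called Esrrb. The iPS minus leukemia difference was 1.79 ± 0.61 (adjusted p = 0.0555, and 6.49e-05 in the fit of those 6 arrays alone).

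Klf5, a Krüppel-like factor of naive cells that is also expressed in basal epithelium, was raised on all colony arrays. It measured 5.98, 6.22 and 6.80 in leukemia, 9.82, 10.19 and 8.24 in GFP-positive colonies, 9.67, 9.86 and 10.02 in GFP-negative colonies, and 10.36, 10.41 and 10.68 in iPS cells. The lowest colony array, GFP-positive replicate 3, still lay more than 1 unit above leukemia. Klf5 rose by 3.09 ± 0.42 in GFP-positive colonies (adjusted p = 0.000434), by 3.52 ± 0.42 in GFP-negative colonies (adjusted p = 0.000178) and by 4.15 ± 0.42 in iPS cells (adjusted p = 4.75e-05), and all 3 calls held whichever of the compared arrays was left out. On GFP-negative replicate 1 it stood at 9.67 beside Nanog at 5.07 and a stratified epithelium marker mean of 9.81. On GFP-negative replicate 3 it stood at 10.02 beside a marker mean of 6.17 against 5.82 to 5.94 in leukemia. The GFP-positive replicates had Klf5 at 9.82, 10.19 and 8.24 beside marker means of 9.66, 9.20 and 9.83. GFP-negative replicate 2 had Klf5 at 9.86 beside 7.61. The part of epithelial RNA in the Klf5 level was not tested.

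Klf2, a Krüppel-like factor that also acts in resting lymphocytes, differed little between the ends of the series, though the iPS arrays all lay above the leukemia arrays. It measured 7.10, 7.14 and 6.95 in leukemia, 6.67, 7.63 and 6.17 in GFP-positive colonies, 5.89, 7.42 and 7.93 in GFP-negative colonies, and 7.60, 7.61 and 7.59 in iPS cells. On 3 colony arrays, GFP-positive replicates 1 and 3 and GFP-negative replicate 1, Klf2 was below every leukemia array. On the other 3 it was above every leukemia array. The iPS minus leukemia difference of 0.54 ± 0.47 was not called (adjusted p = 0.482, and 0.000463 in the fit of those 6 arrays alone), and neither were those of -0.24 ± 0.47 in GFP-positive and 0.02 ± 0.47 in GFP-negative colonies against leukemia.

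Tbx3, a T-box factor downstream of LIF and phosphoinositide signalling, stayed low on most colony arrays. It measured 5.89, 5.86 and 6.45 in leukemia, 6.91, 9.18 and 6.37 in GFP-positive colonies, 6.72, 7.40 and 8.35 in GFP-negative colonies, and 9.82, 9.90 and 9.82 in iPS cells. No colony array reached the iPS arrays. Tbx3 was 13.7-fold higher in iPS cells than in leukemia (3.78 ± 0.63, adjusted p = 0.00133) and 5.13-fold higher than in GFP-positive colonies (2.36 ± 0.63, adjusted p = 0.0395). The second call was kept without GFP-positive replicate 2 and lost without any other array of the comparison (adjusted p from 0.114 to 0.125) and in the fit of those 6 arrays alone (adjusted p = 0.0670), which called 6.54% of all genes higher. Against GFP-negative colonies a like difference, 2.35 ± 0.63, was not called (adjusted p = 0.0653, and 0.0346 without GFP-negative replicate 3).

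Prdm14, a PR-domain factor that represses Fgf receptor signalling and de novo DNA methyltransferases, followed a like course to Tbx3. It measured 5.66, 5.82 and 5.67 in leukemia, 6.47, 7.49 and 5.91 in GFP-positive colonies, 5.71, 6.45 and 8.16 in GFP-negative colonies, and 8.20, 7.91 and 8.05 in iPS cells. GFP-negative replicate 3 alone reached the iPS range, and GFP-negative replicate 1 lay within that of leukemia. It was 5.05-fold higher in iPS cells than in leukemia (2.34 ± 0.54, adjusted p = 0.00950), and neither colony group differed from leukemia by a called amount (0.91 ± 0.54 in GFP-positive and 1.06 ± 0.54 in GFP-negative colonies).

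Between iPS cells and leukemia, 7 of the 10 members were higher (Nanog, Tfcp2l1, Klf5, Tbx3, Prdm14, Nr0b1 and Sall4), 0 were lower, and Esrrb, Zfp42 and Klf2 were not called. Of all genes, 12.4% were called higher. The members' median difference was 3.87, against -0.03 over all genes tested. For all 10 members the 3 iPS arrays lay above the 3 leukemia arrays, which was so for 27.8% of all genes. With those 6 arrays alone, whose spread is smaller than that of the colonies, all 10 were called higher, where 24.5% of all genes were.

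In GFP-positive colonies 3 members rose against leukemia (Nanog, Tfcp2l1 and Klf5) and 7 were not called, where 9.6% of all genes were called higher. In GFP-negative colonies 3 rose (Tfcp2l1, Klf5 and Sall4) and 7 were not called, where 9.02% of all genes were. With 1 of these arrays left out, other members were called, and the array was in each case 1 of the 2 low arrays. Without GFP-positive replicate 3, Tbx3 (1.98, adjusted p = 0.0450), Nr0b1 and Sall4 were higher in GFP-positive colonies. Without GFP-negative replicate 1, Nanog, Nr0b1, Zfp42 (4.52, adjusted p = 0.00518), Esrrb (1.66, adjusted p = 0.0317) and Prdm14 (1.59, adjusted p = 0.0358) were higher in GFP-negative colonies. With 1 array of this comparison left out, 1368 to 2883 of all 22180 genes were called higher. Median differences of the members over all arrays were 2.28 and 2.92, against -0.04 and -0.01 over all genes. In each of the comparisons 6 members had all 3 colony arrays above all 3 leukemia arrays, where 18.1% of all genes did so in GFP-positive and 16.4% in GFP-negative colonies. These comparisons and that of iPS cells share the leukemia arrays. Without the 2 low arrays, left out for the members' own values, the count of calls was 8 in GFP-positive colonies (all but Esrrb and Klf2), where 15.7% of all genes were called higher. It was 9 in GFP-negative colonies (all but Klf2), where 16.1% were. For iPS cells against leukemia, whose arrays are the same in both fits and share a smaller spread in this one, it was 9 (all but Klf2), where 18.9% were.

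**Figure D2:**
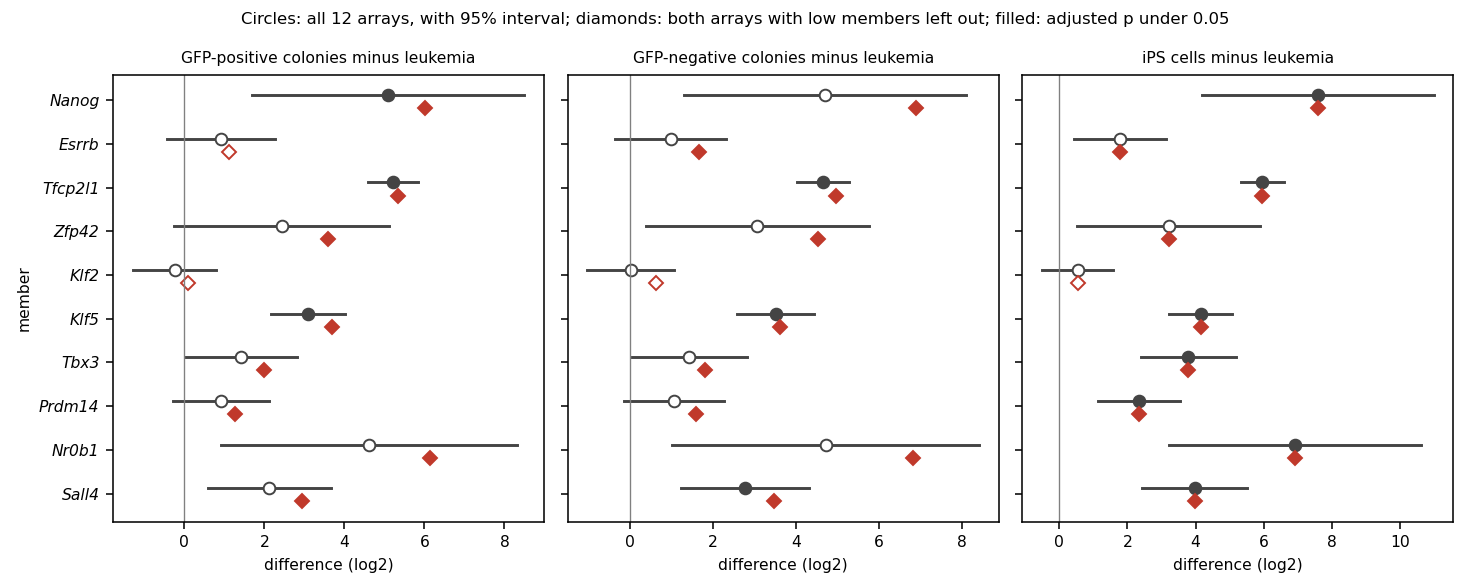
Difference of each member from leukemia (log2, horizontal axis), with 1 panel for each colony group and 1 for iPS cells. Circles with bars are the fit of all 12 arrays with 95% intervals, diamonds the fit without the 2 low arrays (GFP-positive replicate 3 and GFP-negative replicate 1), and filled symbols have an adjusted p under 0.05. Filled circles number 3, 3 and 7. The diamonds leave out arrays chosen by the members' own low values, so their shift to the right in both colony panels is built in.

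GFP-negative and GFP-positive colonies could not be told apart by any member. Limma called 0 of the 10, 0 had an unadjusted p under 0.05, and of all genes 0% were called, with 1413 of 22180 at an unadjusted p under 0.05. The arrays of the groups overlapped for all 10, while 4.31% of all genes had the GFP-negative arrays above all GFP-positive ones. The 95% interval of GFP-negative minus GFP-positive ran from -3.79 to 3.0 for Nanog, from -3.59 to 3.80 for Nr0b1 and from -2.05 to 3.33 for Zfp42, so that large differences in either direction lay within it. It was narrowest for Tfcp2l1, from -1.19 to 0.06, at a difference of -0.56 ± 0.28 (adjusted p = 0.760). For the other 6 members the interval lay between -1.38 and 2.19. Without the 2 low arrays again 0 members were called, with adjusted p from 0.282 for Klf2 to 0.902 for Klf5, while 1.23% of all genes were then called higher and 3.5% lower.

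Against colonies, iPS cells had 1 member called higher in each comparison. Tbx3 was higher than in GFP-positive colonies, where 6.15% of all genes were called higher, and Tfcp2l1 was higher than in GFP-negative colonies by 1.31 ± 0.28 (adjusted p = 0.0302), where 2.94% of all genes were. The Tfcp2l1 call was lost without GFP-negative replicate 2 or any 1 of the iPS arrays (adjusted p up to 0.114) and in the fit of those 6 arrays alone (adjusted p = 0.107), which called 0.649% of all genes higher. Without GFP-positive replicate 2, Klf5 (1.45, adjusted p = 0.0390) and Sall4 (2.51, adjusted p = 0.0348) were also higher in iPS cells than in GFP-positive colonies. Without GFP-negative replicate 3, Prdm14 (1.97, adjusted p = 0.0180) and Tbx3 were also higher than in GFP-negative colonies. With 1 array left out, 405 to 1995 of all 22180 genes were called higher in iPS cells than in GFP-positive colonies. Against GFP-negative colonies 178 to 1023 were. For 6 members the iPS arrays lay above all GFP-positive arrays, which was so for 21% of all genes, and for 5 above all GFP-negative arrays, which was so for 15.3%. All 10 members had a positive difference in both comparisons, with medians of 1.25 and 1.24, against 0.01 and -0.02 over all genes. Without the 2 low arrays 2 members were called higher than in GFP-positive colonies (Tbx3 and Sall4), where 11.2% of all genes were, and 2 higher than in GFP-negative colonies (Tfcp2l1 and Tbx3), where 5.85% were.

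To set members with different ranges side by side, each array was given a position between the leukemia mean (0) and the iPS mean (1) of a member, on the log2 scale. Klf2 was left out because its ends differed by under 1. The colony arrays were placed in order by the median position over 2696 genes that were called between iPS cells and leukemia, differed at least 2-fold and belonged to none of the lists used here. This index was 0.56 on GFP-positive replicate 3, 0.68 on GFP-negative replicate 1, 0.74 on GFP-positive replicate 1, 0.86 on GFP-positive replicate 2, 0.87 on GFP-negative replicate 2 and 0.92 on GFP-negative replicate 3. The order is one of arrays, not of time. GFP-positive replicate 2 and GFP-negative replicate 2 are nearly tied in it. Over the index genes higher in iPS cells alone they stood at 0.85 and 0.83, which turns their order around.

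The number of the 9 members past the midpoint, a position over 0.5, was 1, 2, 6, 9, 7 and 9 along that order. Tfcp2l1 was past it on all 6 arrays, from 0.67 to 0.94, and Klf5 on 5, missing it on GFP-positive replicate 3 at 0.46. Nanog, Nr0b1, Zfp42 and Sall4 were past it on the same 4 arrays, the 4 with the highest index. On GFP-positive replicate 1 these 4 members stood at 0.64, 0.74, 0.81 and 0.62, while Esrrb stood at 0.04, Prdm14 at 0.32 and Tbx3 at 0.22. Esrrb was past the midpoint on 3 arrays, GFP-positive replicate 2 (1.21) and GFP-negative replicates 2 (0.82) and 3 (1.04). Tbx3 and Prdm14 were past it on 2, GFP-positive replicate 2 (0.82 and 0.76) and GFP-negative replicate 3 (0.61 and 1.05), and fell short on GFP-negative replicate 2 (0.35 and 0.32), where Nanog stood at 0.87.

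**Figure D3:**
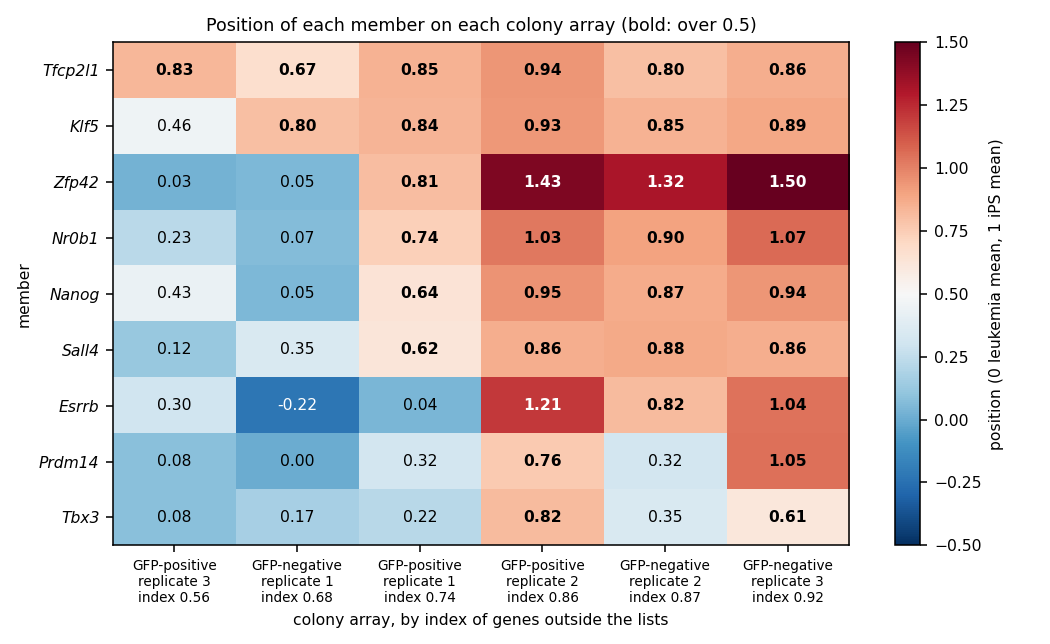
Position of 9 members (rows) on the 6 colony arrays (columns, in order of the index of genes outside the lists), where 0 is the leukemia mean and 1 the iPS mean on the log2 scale; colour and printed numbers give the position, and bold marks a position over 0.5. Tfcp2l1 is past the midpoint on 6 arrays and Tbx3 and Prdm14 on 2.

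The values closest to the midpoint were those of Klf5 (0.46) and Nanog (0.43) on GFP-positive replicate 3 just short of it, and of Tbx3 on GFP-negative replicate 3 (0.61) and Sall4 on GFP-positive replicate 1 (0.62) just past it. Among 1517 genes called higher in iPS cells by at least 1, 33.6% were past the midpoint on all 6 colony arrays, as Tfcp2l1 was, 13.9% on 4, as Nanog was, and 22.1% on 2 or fewer, as Tbx3 and Prdm14 were. The place of Tfcp2l1 depended on the scale. On the linear scale, where a level must reach the arithmetic mean of both ends, Tfcp2l1 was past the midpoint on 3 arrays, at 0.54, 0.77 and 0.56 on GFP-positive replicates 1 and 2 and GFP-negative replicate 3. Klf5 was past it on 5, Zfp42 on 4, Nanog, Nr0b1, Sall4 and Esrrb on 3, Prdm14 on 2 and Tbx3 on 1. Tbx3 and Prdm14 came last on both scales.

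The other genes of the network were counted in lists. Of 15 measured core network factors 10 were higher in iPS cells than in leukemia and 0 lower, with a median of 2.26. In that comparison 12.4% of all genes were called higher and 11.9% lower. Zscan10, a SCAN-domain partner of Pou5f1 and Sox2, rose by 4.77 ± 1.27 (adjusted p = 0.0195) and Sall1, the paralog of Sall4, by 4.53 ± 0.44 (adjusted p = 3.94e-05). Zscan10 measured 5.55 on GFP-positive replicate 3 and 5.65 on GFP-negative replicate 1, within or below its leukemia readings of 5.64 to 5.85, and 8.88 to 10.38 on the other colony arrays. Sall1 measured 8.10 to 9.94 on all 6 colony arrays against 4.84 to 5.41 in leukemia. In GFP-positive colonies 3 of the 15 rose and 1 fell, where 9.6% of all genes were called higher and 12.3% lower. In GFP-negative colonies 3 rose and 0 fell, where 9.02% were called higher and 12% lower.

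Of 12 measured effectors of the naive state 8 were higher in iPS cells than in leukemia, with a median of 3.89, and 3 rose in each colony group. The shares of all genes called higher were 12.4% in iPS cells, 9.6% in GFP-positive and 9.02% in GFP-negative colonies. Tdgf1, the Nodal co-receptor, was at 9.75 to 12.03 on all colony arrays against 4.79 to 5.35 in leukemia, and rose by 7.19 ± 0.53 to iPS cells (adjusted p = 4.88e-06). Fbxo15, an F-box gene bound by Pou5f1 and Sox2, rose by 6.02 ± 0.88 (adjusted p = 0.000594) and was at 6.01 on GFP-negative replicate 1 against 7.89 to 10.18 on the other colony arrays.

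Of the 10 genes of the LIF and STAT3 list 1 was higher, 2 were lower and 7 were not called in iPS cells against leukemia, with a median of 0.08 over genes that went both ways. These counts are near the shares over all genes, 12.4% higher and 11.9% lower. Lifr, the LIF receptor, rose by 3.12 ± 0.56 (adjusted p = 0.00223), and measured 5.64 on GFP-positive replicate 3 and 5.55 on GFP-negative replicate 1, within its leukemia readings, and 6.54 to 7.92 on the other colony arrays. Pim1, a kinase gene induced by STAT signals in blood cells as well, fell by 0.84 (adjusted p = 0.00767). In GFP-positive colonies limma called 0 higher, with 0 at an unadjusted p under 0.05, and 2 fell. Of all genes 9.6% were called higher there and 12.3% lower. In GFP-negative colonies 1 rose and 2 fell, where 9.02% of all genes were called higher and 12% lower.

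Of 9 formative and primed genes, which mark the step after the naive state, 2 were higher and 1 lower in iPS cells than in leukemia. Among all genes 12.4% were called higher there and 11.9% lower. Otx2, a homeodomain factor of that step, measured 8.78, 9.54 and 8.64 in GFP-positive and 6.39, 9.38 and 10.34 in GFP-negative colonies, against 8.70 to 8.79 in iPS cells and 6.01 to 6.31 in leukemia. It exceeded every iPS array on GFP-positive replicate 2 and GFP-negative replicates 2 and 3, the arrays on which Zfp42 did. Otx2 rose by 2.80 ± 0.76 in GFP-positive (adjusted p = 0.0238) and 2.51 ± 0.76 in GFP-negative colonies (adjusted p = 0.0395). Lef1, a Wnt effector that T cells also express, fell by 5.97 to iPS cells (adjusted p = 3.78e-05). In GFP-positive colonies 2 rose and 1 fell, where 9.6% of all genes were called higher and 12.3% lower. In GFP-negative colonies 4 rose and 1 fell, where 9.02% were called higher and 12% lower. In the 12-array fit limma called 0 of the 9 between iPS cells and GFP-negative colonies, and 0 had an unadjusted p under 0.05. The fit without the low arrays, which were chosen by the members' values, gave another count. There 6 of the 9 were called lower in iPS cells than in GFP-negative colonies and 0 higher (median -0.84). Of all 22180 genes, 924 were called lower in that comparison. Against GFP-positive colonies 1 of the 9 was called lower in that fit (median -0.3), where 2060 of all 22180 genes were.

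The cassette factors, whose probe sets may also read cassette transcripts, had 3 of 4 higher in iPS cells than in leukemia (Pou5f1, Sox2 and Klf4) and 1 lower (Myc). Among all genes 12.4% were called higher and 11.9% lower. Sox2 was at 6.76 on GFP-positive replicate 3 and 4.83 on GFP-negative replicate 1 and 8.46 to 10.69 on the other colony arrays, against 4.33 to 5.25 in leukemia and 10.42 to 10.55 in iPS cells. Its difference between iPS cells and leukemia was 5.80 ± 1.32 (adjusted p = 0.00865). Pou5f1 was at 6.99 to 7.59 on all 6 colony arrays, between leukemia (6.31 to 6.68) and iPS cells (8.08 to 8.14). Its lowest colony values, 6.99 and 7.06, were on the 2 low arrays, against 7.14 to 7.59 on the other colony arrays. Klf4 was at 9.43 on GFP-positive replicate 3, level with iPS cells (9.26 to 9.42), where Nanog stood at 7.97.

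**Figure D4:**
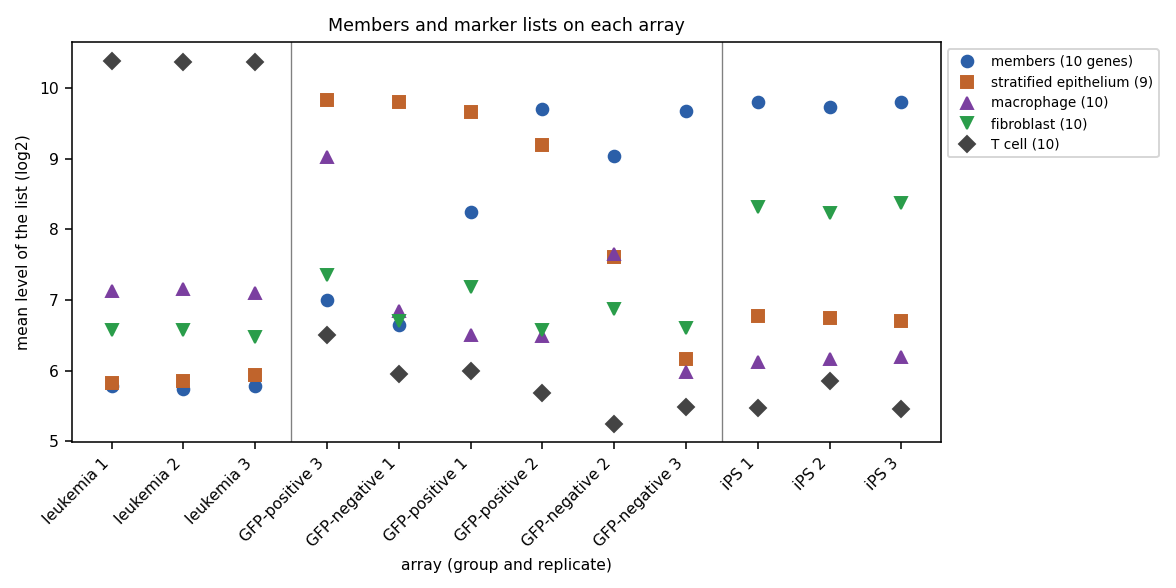
Mean level (log2, vertical axis) of the 10 members and of 4 marker lists on each array (horizontal axis; colony arrays in order of the index). Among the colonies the members range from 6.65 to 9.71 and are above 8 on the 4 arrays with the highest index, stratified epithelium markers are above 9 on 4 colony arrays, and T cell markers are above 10 in leukemia and at most 6.50 elsewhere.

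Markers of other cell types differed between the colony arrays and are given beside the members. The 10 measured T cell markers averaged 10.37 to 10.39 in leukemia, 5.25 to 6.50 in colonies and 5.46 to 5.86 in iPS cells. All 10 fell in each of the 3 groups against leukemia, where 11.9% to 12.3% of all genes were called lower. Markers of stratified epithelium (9 measured) had means of 9.66, 9.20 and 9.83 across the GFP-positive replicates, of 9.81, 7.61 and 6.17 across the GFP-negative ones, and of 6.71 to 6.77 in iPS cells. Of these, 5 of 9 were called higher in GFP-positive colonies than in leukemia, where 9.6% of all genes were. Krt14 read 12.36 on GFP-positive replicate 2 and 5.54 on GFP-negative replicate 3. Other markers of the list were mixed on GFP-negative replicate 3. Krt17 (8.41 against 4.79 to 5.45) and Perp (7.73 against 4.94 to 5.66) were above leukemia, and Dsp (6.57 against 7.33 to 7.42) was below it. Macrophage markers (10 measured) averaged 9.02 on GFP-positive replicate 3 and 7.65 on GFP-negative replicate 2, against 5.98 to 6.84 on the other colony arrays and 7.10 to 7.16 in leukemia. The complement gene C1qb read 10.87 on GFP-positive replicate 3, where 1 of 9 members was past the midpoint, and 6.31 on GFP-negative replicate 1, where 2 of 9 were. Other macrophage markers were mixed on GFP-negative replicate 1. Csf1r (8.98 against 8.0 to 8.1) and Cd68 (10.12 against 8.24 to 8.39) were above leukemia. Lyz2 (6.08 against 7.77 to 8.27) and Itgam (6.44 against 8.31 to 8.36) were below it. Fibroblast markers (10 measured) averaged 8.24 to 8.37 in iPS cells and 6.58 to 7.35 in colonies. Dcn, which encodes decorin, was at 10.64 to 10.81 in iPS cells and 4.81 to 7.20 in colonies. Fn1 of the same list was at 11.64 to 11.67 in iPS cells and 10.04 to 11.86 in colonies. Pan-leukocyte markers averaged 8.30 on GFP-positive replicate 3, 6.37 to 7.20 on the other colony arrays and 9.87 to 9.95 in leukemia. Primitive endoderm markers, which bear on Sall4, averaged 5.70 to 5.88 in leukemia, 5.76 to 6.36 in colonies and 5.95 to 6.10 in iPS cells. The part of these cell types in the members' levels was not tested.

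The genes outside the lists with the closest positions over the 6 colony arrays were sought among 964 genes called between iPS cells and leukemia by at least 2. Closest to Nanog were Rpp25, Pald1 and Slc7a7, with mean absolute position differences of 0.0648, 0.0682 and 0.0733. Rpp25 stood at 0.65, 0.96 and 0.44 on the GFP-positive replicates and 0.19, 0.78 and 0.83 on the GFP-negative replicates. Closest to Tfcp2l1 were Cdyl2 (0.0658), Nefl (0.0671) and Yes1 (0.0732), Yes1 standing between 0.71 and 0.83 on all 6. Closest to the members' median position were Slc7a7 (0.0421), Pald1 (0.0589) and Uchl1 (0.0681). These genes share the arrays with the members, and the likeness is a description.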

How the data were processed

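RNA abundance was measured on 12 microarrays, 3 per group, in the mouse cells described above. The deposited values are log2 and came from RMA per the submitters' processing notes, with its version not given in the sources used here. RMA equalises the distributions of arrays (medians here 5.76 to 5.82), which would hide a common shift of most genes. Precision is limited by the number of arrays, and no detection values were used. Of 41345 probe sets 23521 had 1 gene symbol, 1814 several and 16010 none here, and the last 2 kinds were left out. Where a gene had several probe sets (1082 genes) the one with the highest mean was kept, leaving 22180 genes. Entrez identifiers of all 10 members were in the RefSeq table (GRCm38.p6), with 0 symbols differing. There were 0 missing values and 0 identical arrays.

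The test was limma 3.58.1 (R 4.3.3), with a mean for each of the 4 groups over the 12 arrays and no replicate block, and its script was tested on simulated data. Groups share 1 spread in it, which is too wide for leukemia and iPS cells and too narrow for colonies, so fits of the 6 compared arrays were run too. Other alternatives were cyclic loess, the mean of probe sets, a filter on low values, array weights, the replicate number as a block, leaving out each array, and other midpoints and scales for positions. Sequences and motif matches were read with Python 3.11.15. The members and lists were chosen with earlier results of these data known. The lists held network factors, LIF and STAT3 genes, naive effectors, formative and primed genes, cassette factors, and markers of T cells, leukocytes, macrophages, stratified epithelium, fibroblasts and primitive endoderm, of which 8 genes were not measured here. Named outside the members were the 2 called genes of each network list with the largest iPS minus leukemia difference, all genes of lists under 5, and the 3 genes closest in position to Nanog, Tfcp2l1 and the members' median, clone and locus names left out. Krt14, Krt17, Perp, Dsp, C1qb, Csf1r, Cd68, Lyz2, Itgam, Dcn and Fn1 were named after their values were seen. The replicate numbers in the titles were not shown to pair the arrays (2 of 18 same-numbered pairs had correlated deviations over 0.1). Same-numbered GFP-positive and GFP-negative arrays correlated at 0.17, 0.32 and -0.38, and differently numbered ones at -0.66 to 0.62. These few pairs cannot exclude a pairing.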

Additional observations from a re-analysis of the deposited data

How the results depend on the processing

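The low arrays were chosen by the members' values, so a rise in counts against leukemia without both of them is built in. Counts of members called higher, with those of members called lower at 0 throughout, were compared over the alternatives. For iPS cells against leukemia the count of 7 stayed between 7 and 10. For GFP-positive colonies against leukemia the count of 3 was 2 to 6 with 1 array left out, and 8 with array weights and 8 without both arrays with low members. For GFP-negative colonies against leukemia the count of 3 was 2 to 8 with 1 array left out, and 9 with array weights and 9 without both arrays. The array weights were 1.48, 0.377 and 0.267 for GFP-positive replicates 1, 2 and 3, and 0.148, 2.18 and 0.303 for the GFP-negative ones. Weighted results for colonies, here and below, thus rest mainly on GFP-positive replicate 1 and GFP-negative replicate 2. Of all genes, 3859 were called higher with array weights in GFP-positive and 4230 in GFP-negative colonies against leukemia. For iPS cells against GFP-positive colonies the count of 1 was 0 to 3 with 1 array left out, 2 with the mean of probe sets, 7 with array weights, 0 with the replicate block and 2 without both arrays. For iPS cells against GFP-negative colonies it was 0 to 3 with 1 array left out, 3 with array weights, 0 with only the 6 arrays compared and 2 without both arrays. Between the colony groups 0 were called under every alternative. The cause of these shifts was not tested, beyond fewer or lighter arrays.

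Signs turned only for differences that were not called. Klf2 in GFP-positive colonies against leukemia was 0.09 without both arrays, and -0.64 to 0.09 with 1 array left out. In GFP-negative colonies it was -0.41 to 0.62 with 1 array left out. Against GFP-negative colonies iPS cells had Zfp42 at -0.85 with array weights, -1.31 without both arrays and -1.31 to 1.01 with 1 array left out, and Klf2 at -0.08 without both arrays and -0.08 to 0.94 with 1 array left out. Against GFP-positive colonies Zfp42 was -0.38 without both arrays and -0.38 to 1.86 with 1 left out. For GFP-negative minus GFP-positive colonies Tbx3 was -0.01 after cyclic loess, Nanog 1.27 with array weights, and Nanog 0.85, Klf5 -0.07 and Tbx3 -0.17 without both arrays. With 1 array left out this difference ran from -1.61 to 1.78 for Nanog, -0.38 to 0.74 for Esrrb, -0.52 to 2.09 for Zfp42, -0.17 to 0.86 for Klf2, -0.16 to 0.82 for Klf5, -0.55 to 0.85 for Tbx3, -0.54 to 0.69 for Prdm14, -1.42 to 2.21 for Nr0b1 and -0.17 to 1.34 for Sall4.

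The replicate number was not shown to mark a pairing. As a block it removed the Tbx3 call between iPS cells and GFP-positive colonies (adjusted p = 0.0540, limma) and changed no other call of a member. Of 54 pairs of a member and a colony array 34 were past the midpoint, 41 at a position over 0.25, 29 at one over 0.75, 35 after cyclic loess and 27 on the linear scale.

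Counts of all genes called moved by over 1.5 times in places. For GFP-positive colonies against leukemia the 2129 higher and 2719 lower genes became 3859 and 4329 with array weights, and 3486 were higher without both arrays. For GFP-negative colonies the 2001 and 2654 became 4230 and 4443 with array weights, and 3573 were higher without both arrays. For iPS cells against leukemia the 2759 and 2636 became 5267 and 5278 with array weights and 5438 and 5087 with the 6 arrays alone, and 4195 were higher without both arrays. Between colony groups the 0 and 0 became 405 and 910 with array weights, 273 and 776 without both arrays, and up to 251 and 768 with 1 array left out. For iPS cells against GFP-positive colonies the 1365 and 939 became 3910 and 3074 with array weights, 2475 and 2060 without both arrays, and 405 to 1995 and 188 to 1427 with 1 array left out. Against GFP-negative colonies the 651 and 292 became 2492 and 1905 with array weights, 144 and 46 with the 6 arrays alone, 1298 and 924 without both arrays, and 178 to 1023 and 73 to 732 with 1 array left out.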
